A study of Mus musculus with 6 samples.

Results

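The disease-associated microglia (DAM) genes described here are Trem2, Tyrobp, Apoe, Cst7, Lpl, Spp1, Gpnmb, Cd9, Axl and Lgals3. They were chosen by name, and the 10 genes are 10 of the 54532 genes in the table of counts. The filter on low counts left 12296 genes for testing, among them 9 of the 10, and Axl did not pass it. RNA-seq was done on N9 cells, an immortalized microglial cell line from mouse brain, grown in medium with serum and antibiotics. The 3 control samples were untreated, and the 3 LPS samples had 6 h with lipopolysaccharide (LPS), a glycolipid from the surface of gram-negative bacteria, at 1 µg/ml. All samples are therefore from 1 cell line, without the neurons, astrocytes and plaques of a brain, and the labels do not say whether the samples of a group were separate cultures, so p-values measure the spread between these samples, which may be technical.

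DAM are microglia that gather around amyloid plaques and at sites of demyelination and cell death, where they lower their homeostatic genes and raise a program of lipid handling, lysosome and phagocytosis genes. The receptor TREM2 binds phospholipids and lipoproteins, APOE among them, and passes the signal through its adaptor TYROBP (DAP12), whose phosphorylated motif recruits the kinase SYK. The full program is known to depend on TREM2, and TREM2 and APOE are both known risk genes for Alzheimer's disease. The comparison of control with LPS asks how these genes stand when microglia are activated by a bacterial ligand of TLR4 instead.

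With LPS, 5 of the 9 tested genes fell (Apoe, Trem2, Spp1, Lpl and Cd9), 2 rose (Lgals3 and Gpnmb), and 2 were not called (Tyrobp and Cst7). A gene was called when its adjusted p was under 0.05 in edgeR's quasi-likelihood test, with Benjamini-Hochberg adjustment over all genes tested. By this rule 34.3% of all tested genes were called: 15.7% of all tested genes were called lower and 18.7% higher. Every change was small: none of the 9 passed an absolute log2 fold change of 1.5, which 2.65% of tested genes did along with the adjusted p. Of the genes that fell, Cd9 fell by 6.57% and Apoe fell by 37.4%, and the rises were 5.61% (Gpnmb) and 15.5% (Lgals3). The median log2 fold change was -0.11 over the 9 genes and 0.00 over all genes tested. All LPS libraries were below all control libraries for 5 of the 9 and above for 2, where 45.3% of tested genes did not overlap, 21.5% with LPS below and 23.7% with LPS above. Most of these genes were deeply counted. Of the 7 whose mean reached 1000 counts, 6 were called (4 lower and 2 higher), beside 47.5% of all 4044 such genes, 18.2% lower and 29.3% higher. In the RNA of a whole culture, fewer cells that express a gene and less RNA per cell cannot be told apart.

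The total count per library lay between 16363767 and 17956772, so that 3 counts correspond to between 0.161 and 0.19 CPM. Levels are given in CPM, counts per 1000000 counts of the library size after TMM scaling, with scaling factors between 0.9646 and 1.036. All 12 microglia and macrophage markers examined had over 3 counts in at least 1 library, with a summed level of 2340 to 2428 CPM in control and 2464 to 2581 CPM in LPS libraries. Cd68, Laptm5 and Csf1r had the most counts among these markers, while Aif1 had between 4 and 9 counts and was not tested. Of the 10 tested, Spi1 (log2 0.58), Ptprc (0.24) and Csf1r (0.16) were called higher, Laptm5 (-0.31) and Adgre1 (-0.23) lower, and 5 were not called. The homeostatic genes were uneven: Csf1r, the receptor of the growth factors CSF1 and IL-34, had 432 CPM in control, while P2ry12 had between 3 and 6 counts, Sall1 at most 1 and Siglech 0 in every library. Summed astrocyte markers were at 209 to 211 CPM in control and 194 to 206 CPM with LPS, those of oligodendrocytes at 45.7 to 54.3 and 42.6 to 43.5 CPM, and those of neurons at 27.3 to 28.3 and 28.5 to 32.6 CPM. Single markers of these cells differed widely. Gfap had at most 10 counts, Aqp4 at most 2, Snap25 at most 5, and Olig2 and Sox10 had 0 in every library. Others were well counted, with control means of 112 CPM for Aldoc, 68 for Gja1, 28.3 for Aldh1l1, 36.1 for Mbp, 13.6 for Cnp and 22.5 for Map2. The tested markers that were called were Aldh1l1 (log2 -0.29), Aldoc (-0.17) and Gja1 (0.18) for astrocytes, Mbp (-0.34) for oligodendrocytes, and Map2 (-0.41) and Tubb3 (1.67) for neurons, and their part in the changes of the DAM genes was not tested. The 6 adipocyte markers summed to at most 0.484 CPM. Control replicates 2 and 3 stood apart in hepatocyte markers. The 25 hepatocyte markers too low for the test summed to 11, 397 and 604 counts over the control libraries in that order, and to 11, 8 and 15 counts with LPS. Ambp, the only hepatocyte marker tested, had 86, 124 and 112 counts in control and 74, 80 and 100 with LPS. It was not called (edgeR adjusted p = 0.403). The higher sums in control replicates 2 and 3 matter here for Apoe, which hepatocytes also express strongly. Where leaving out these 2 libraries changes the call on a DAM gene or on a gene named from the lists of related genes, both values are given.

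**Figure D1:**
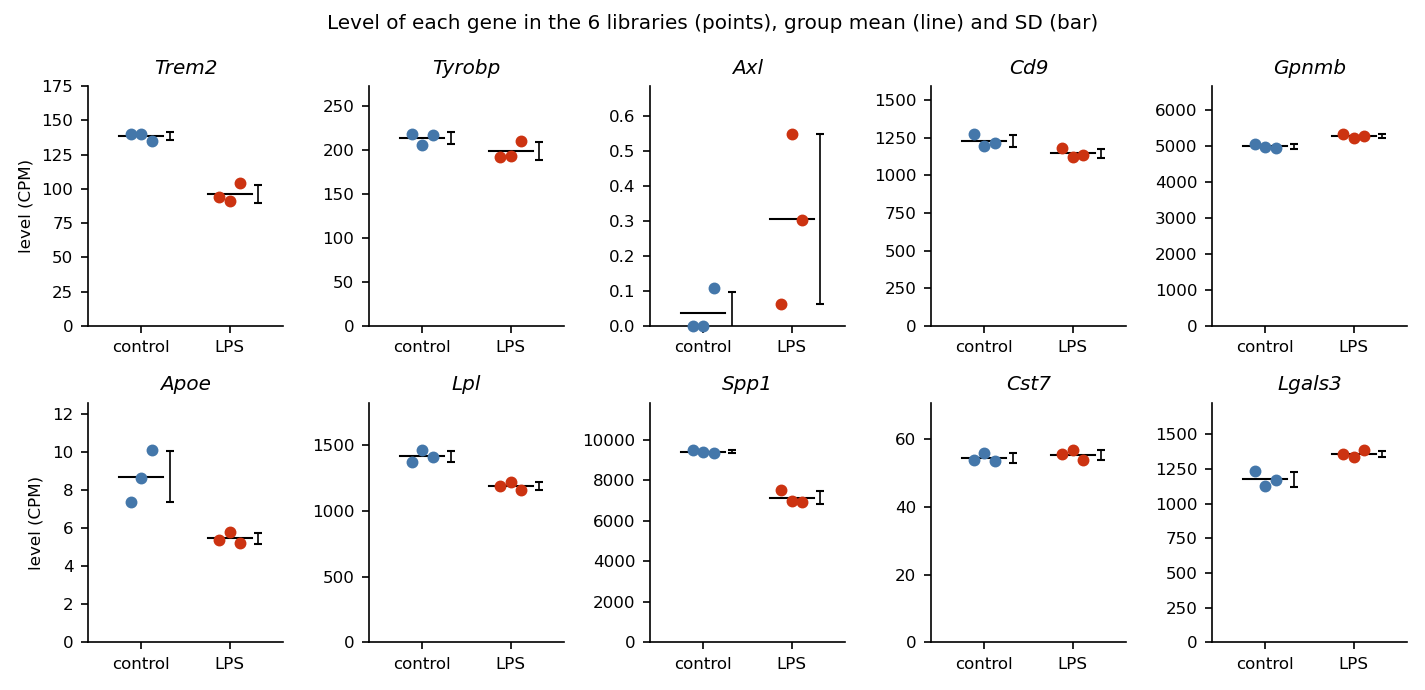
Level of each of the 10 genes in CPM (y axis from 0, a scale of its own in each panel) in control (blue) and LPS (red) libraries, with the group mean as a line and the SD as a bar (the Axl bars are cut at 0). The libraries of the groups do not overlap for Trem2, Apoe, Lpl, Spp1 and Cd9 (all LPS lower) or for Gpnmb and Lgals3 (all LPS higher), and they overlap for Tyrobp, Cst7 and Axl.

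The sequence before the transcription start is shown for the 3 genes with the largest falls and for both genes that rose, since members that moved in opposite directions can be compared there. Each line gives 250 bases before the first RefSeq start (GRCm38.p6), read 5′ to 3′ on the gene's strand: chr17:48346151-48346400 (plus strand) for Trem2, chr5:104434861-104435110 (plus) for Spp1, chr7:19699189-19699438 (minus) for Apoe, chr6:49036268-49036517 (plus) for Gpnmb and chr14:47373610-47373859 (plus) for Lgals3. Capitals mark every match, on either strand, to one of the motifs searched.
Trem2: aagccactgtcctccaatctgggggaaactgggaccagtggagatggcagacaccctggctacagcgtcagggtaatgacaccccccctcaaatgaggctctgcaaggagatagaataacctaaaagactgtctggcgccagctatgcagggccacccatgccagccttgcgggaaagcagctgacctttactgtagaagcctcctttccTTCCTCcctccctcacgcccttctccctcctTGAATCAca
Spp1: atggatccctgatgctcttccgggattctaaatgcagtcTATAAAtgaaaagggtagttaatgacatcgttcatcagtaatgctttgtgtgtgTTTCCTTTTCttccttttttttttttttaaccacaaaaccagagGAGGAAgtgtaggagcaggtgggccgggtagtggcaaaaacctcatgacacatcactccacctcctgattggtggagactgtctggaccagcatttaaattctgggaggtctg
Apoe: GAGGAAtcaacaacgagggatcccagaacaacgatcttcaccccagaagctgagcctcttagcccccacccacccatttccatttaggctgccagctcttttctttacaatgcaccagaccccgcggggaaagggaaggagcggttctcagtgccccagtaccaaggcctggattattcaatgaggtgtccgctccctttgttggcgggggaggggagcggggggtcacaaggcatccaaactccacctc
Gpnmb: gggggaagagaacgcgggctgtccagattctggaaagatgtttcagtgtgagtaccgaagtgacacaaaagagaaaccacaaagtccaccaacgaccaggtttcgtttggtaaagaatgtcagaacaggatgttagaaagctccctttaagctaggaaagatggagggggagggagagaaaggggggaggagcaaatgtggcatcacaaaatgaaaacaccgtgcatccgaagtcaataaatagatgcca
Lgals3: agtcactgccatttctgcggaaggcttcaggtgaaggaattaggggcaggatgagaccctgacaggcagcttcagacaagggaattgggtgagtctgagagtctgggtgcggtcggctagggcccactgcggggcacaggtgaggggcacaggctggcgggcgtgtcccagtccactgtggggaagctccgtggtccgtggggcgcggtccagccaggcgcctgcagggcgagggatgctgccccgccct

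The motifs were searched on both strands from 250 bases before to 50 bases after each start, in 11 windows of 8 of the 10 genes and in all 32851 windows of 27025 genes. Tyrobp and Lpl had no entry. The AP-1 motif TGANTCA, bound by FOS and JUN proteins, stood 9 to 3 bases before the start of Trem2. It also lay across the start of Cst7 and, 9 to 15 bases into the transcript, in Gpnmb, beside 7.81% of all windows. In Trem2 the capitals farther upstream are GAGGAA on the minus strand, the core motif of PU.1, the lineage factor of microglia and macrophages. That core was in 5 of the 11 windows (Trem2, Spp1, Axl and 2 starts of Apoe) and in 28.3% of all windows. In Spp1 the capitals are, from the left, TATAAA, the interferon response motif (GAAA, 2 bases of any kind, GAAA) on the minus strand and GAGGAA. The interferon motif was in 3.44% of all windows and TATAAA in 13.6%, here in Spp1 and in another start of Apoe. The NF-kappa B consensus (4.51% of all windows), the STAT motif TTCNNNGAA (8.3%) and the E-box CACGTG of the MiT/TFE factors (7.15%) matched none of the 11 windows. No motif overlapped another in the windows printed, and the windows of Lgals3 and Cd9 held no match to any of them.

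Trem2 fell by 30.2% in the LPS samples. The gene (ENSMUSG00000023992) lies on chr17:48346401-48354147 (GRCm38, plus strand), and its principal transcript has 5 exons. It had 2397, 2462 and 2503 counts in control and 1481, 1497 and 1705 counts with LPS, in the order of replicates 1, 2 and 3, as for all such values here. Each LPS library was below each control library. The level was 138 ± 2.95 CPM (SD, n = 3) in control and 96.3 ± 6.61 CPM (n = 3) with LPS. The log2 fold change was -0.52 ± 0.05 (SE, 95% interval -0.63 to -0.41, edgeR adjusted p = 1.9e-06). Among all tested genes 6.16% had a lower log2 fold change than Trem2, and its rank by level went from 1605 to 2561.

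Tyrobp, the adaptor through which TREM2 and several related receptors signal, was not called. The gene (ENSMUSG00000030579, chr7:30413760-30417585, plus strand) had 3732, 3637 and 4030 counts in control and 3033, 3164 and 3446 with LPS. On the CPM scale the groups overlapped, since LPS replicate 3 (210 CPM) was above control replicate 2 (206 CPM). The mean was 214 ± 6.46 CPM in control and 198 ± 9.96 CPM with LPS, and the log2 fold change -0.11 ± 0.05 (95% interval -0.21 to -0.00, edgeR adjusted p = 0.103). The adjusted p was 0.0409 without LPS replicate 3. Receptor and adaptor can also be compared within each library. The ratio of Trem2 to Tyrobp counts, which does not depend on how libraries are scaled, was 0.642, 0.677 and 0.621 in control and 0.488, 0.473 and 0.495 with LPS. It was lower in 3 of 3 LPS libraries, with a log2 difference of -0.41 and p = 0.1 in an exact 2-sided permutation test, the smallest p that 3 samples against 3 allow.

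The list of 19 genes around TREM2 signaling holds downstream genes, related receptors, another adaptor and the sheddases of TREM2. It went both ways: 6 rose, 7 fell and 6 were not called, with a median log2 fold change of -0.03. The count of rises was 4 in DESeq2, 3 with libraries scaled by their total count and 2 without control replicates 2 and 3, while that of falls was 6, 8 and 7. The rise of Syk, the kinase that docks on TYROBP, was the largest of the list, from 157 ± 4.15 CPM to 336 ± 8.2 CPM (log2 1.10, edgeR adjusted p = 3.7e-11), with all LPS libraries above. Treml2, a receptor of the same gene cluster, rose by 0.67 on the log2 scale, and Malt1, a subunit of the CARD9-BCL10-MALT1 signaling complex, by 0.28. Without control replicates 2 and 3 both calls were lost, with log2 fold changes of 0.35 (adjusted p = 0.274) for Treml2 and 0.22 (0.0685) for Malt1. Plcg2, the phospholipase C of this pathway, fell by 0.31 (237 to 192 CPM). Phosphatases that dampen the signal fell as well: Inpp5d (SHIP1) by 0.55 and Ptpn6 (SHP-1) by 0.55 on the log2 scale. The largest fall was that of Pik3cd, a catalytic subunit of phosphoinositide 3-kinase, by 0.63. Of the sheddases that cleave TREM2 from the cell surface, Adam10 fell by 0.36 and Adam17 rose by 0.20 on the log2 scale, but with libraries scaled by their total count Adam17 was at 0.10 and lost its call (adjusted p = 0.0811). Hcst (DAP10), an adaptor like TYROBP whose gene ends 127 bases from the end of Tyrobp on the opposite strand, had between 30 and 51 counts and was not called (log2 -0.03, adjusted p = 0.951).

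Axl, a receptor tyrosine kinase of the TAM family that recognizes phosphatidylserine on dying cells through its ligand GAS6, was hardly counted in N9 cells. The gene (ENSMUSG00000002602, chr7:25757273-25788705, minus strand, 20 exons in its principal transcript) had 0, 0 and 2 counts in control and 1, 9 and 5 with LPS. The groups overlapped, because LPS replicate 1 had fewer counts than control replicate 3. Summed over libraries, 15 counts with LPS against 2 in control gave a ratio of 7.69 after scaling, with an exact 95% counting interval of 1.79 to 69.3 that covers counting error only, since without molecular identifiers 2 reads may come from 1 molecule. In edgeR without a filter on low counts the unadjusted p was 0.0232 and the adjusted p 0.103. In DESeq2 the unadjusted p was 0.0605, with no adjusted value.

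The rest of the TAM system was counted more deeply and 3 of its 4 genes fell, with a median log2 fold change of -0.50. Mertk, the TAM receptor best known in phagocytosis by macrophages, had 510, 503 and 581 counts in control and 184, 210 and 196 with LPS. All LPS libraries were below, and the level went from 29.8 ± 1.37 to 12.1 ± 0.598 CPM (log2 -1.30 ± 0.09, edgeR adjusted p = 2.1e-08). Pros1, the ligand protein S, fell by 0.40 on the log2 scale (63.1 to 47.8 CPM, adjusted p = 3.1e-05), and Gas6, the ligand of AXL, by 0.61 (4.13 to 2.71 CPM, adjusted p = 0.0418). The call on Gas6, with 34 to 81 counts, was lost in DESeq2, where the adjusted p was 0.117, and without control replicate 2 (0.129), control replicate 3 (0.113), LPS replicate 1 (0.145) or LPS replicate 2 (0.0932), and it was 0.488 without control replicates 2 and 3 together. Tyro3 had at most 19 counts and was not called (log2 -0.23, adjusted p = 0.69).

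**Figure D2:**
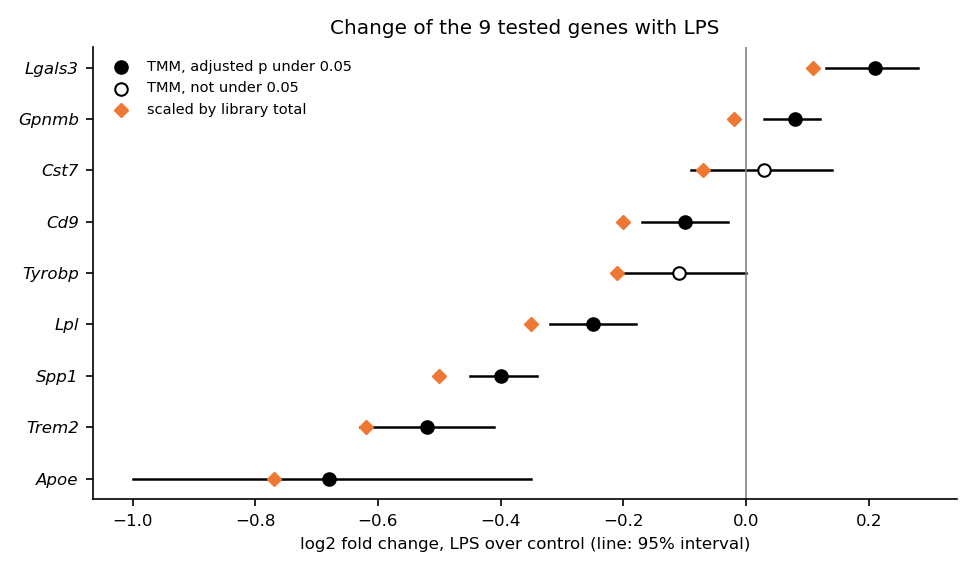
Log2 fold change of LPS over control (x axis) for the 9 tested genes (y axis), with TMM scaling (circles, filled where the edgeR adjusted p is under 0.05, with the 95% interval as a line) and with libraries scaled by their total count (diamonds). With TMM the values run from -0.68 (Apoe) to 0.21 (Lgals3), and every diamond lies to the left of its circle, which takes Gpnmb from 0.08 to -0.02.

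Among the lipid genes, Apoe fell and was low throughout. Apolipoprotein E is the main lipid carrier secreted by glia and a ligand of TREM2. The gene (ENSMUSG00000002985, chr7:19696109-19699188, minus strand) had 127, 153 and 188 counts in control and 85, 95 and 86 with LPS. Levels were 7.41, 8.67 and 10.1 CPM in control and 5.39, 5.79 and 5.24 CPM with LPS, so that every LPS library was below every control library. The means were 8.73 ± 1.35 and 5.47 ± 0.288 CPM (SD, n = 3 each), a log2 fold change of -0.68 ± 0.15 or a ratio of 0.626 (95% interval 0.501 to 0.783, edgeR adjusted p = 0.00268). The control libraries spread more than counting alone gives, with a coefficient of variation of 15.5% where Poisson counting gives 8.01%. Their order was that of the 25 hepatocyte markers too low for the test, which summed to 11, 397 and 604 counts in the same libraries. Control replicate 1, at 7.41 CPM of Apoe, had 11 counts of these markers, and the LPS libraries, at 5.24 to 5.79 CPM, had 8 to 15. Without control replicates 2 and 3, the log2 fold change was -0.44 and the adjusted p 0.165. The part of hepatocyte RNA in the difference was not tested. Apoc1 and Apoc4, the neighbors of Apoe in its gene cluster, had 0, 3 and 8 and 0, 0 and 2 counts in control replicates 1, 2 and 3, while Apoc2 was at 0 in every library.

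**Figure D3:**
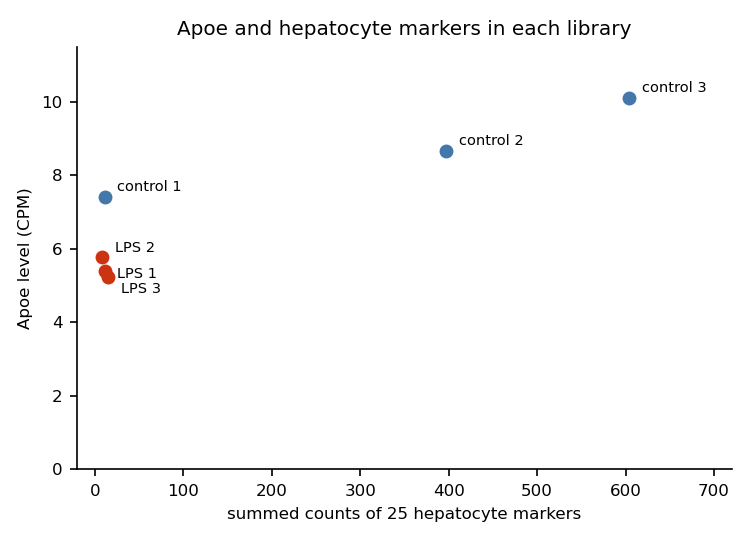
Level of Apoe (y axis, CPM, from 0) against the summed counts of 25 hepatocyte markers (x axis) in each library, control in blue and LPS in red. Control replicate 1 (7.41 CPM, 11 marker counts) lies above the LPS libraries (5.24 to 5.79 CPM, 8 to 15 marker counts), and control replicates 2 and 3 lie higher still, with 397 and 604 marker counts.

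Lpl, lipoprotein lipase, which releases fatty acids from the triglycerides of lipoproteins, was among the genes with the most counts and fell by 15.9%. The gene (ENSMUSG00000015568, chr8:68880491-68907448, plus strand, 10 exons) had 23545, 25744 and 26172 counts in control and 18758, 20039 and 19007 counts with LPS. On the CPM scale these are 1374, 1459 and 1408 against 1189, 1222 and 1157, with no overlap. The log2 fold change was -0.25 ± 0.03 (95% interval -0.32 to -0.18, edgeR adjusted p = 2.9e-05), and the rank by level went from 43 to 69. Adipocytes also make this enzyme, and the 6 adipocyte markers summed to 5, 7 and 9 counts in control and 6, 0 and 3 with LPS, with Adipoq and Cidec at 0 in every library.

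Of the genes that serve LPL, Sel1l, which lets the folded enzyme leave the endoplasmic reticulum, fell by 0.19 on the log2 scale (188 to 164 CPM), a call lost without control replicates 2 and 3 (log2 -0.17, adjusted p = 0.0831). Lmf1, its maturation factor, was not called (log2 -0.12, adjusted p = 0.386). Gpihbp1, the anchor of the enzyme on capillary walls, was at 0 counts in every library, and its inhibitor Angptl4 had at most 4 counts. In the whole list of 24 lipoprotein and lipid genes, 18 were tested, of which 6 rose, 4 fell and 8 were not called, with a median log2 fold change of 0.11. The rises were led by Abca1, the cholesterol exporter that loads lipid onto apolipoproteins, from 63.2 ± 10.8 to 123 ± 14.4 CPM (log2 0.96 ± 0.10, adjusted p = 3.4e-06). Plin2, a coat protein of lipid droplets, rose by 0.38 on the log2 scale and Fabp4, a fatty acid binding protein, by 0.29. Abcg1, a partner exporter, rose by 0.26. The falls were led by Mylip, a ubiquitin ligase, by 0.35, and Cd36, a scavenger receptor for oxidized lipoproteins, by 0.32. Abcg1 (log2 0.23, adjusted p = 0.0984) and Mylip (log2 -0.32, 0.0804) lost their calls without control replicates 2 and 3, where 1 gene of the list was called lower. Lrp1, a further receptor of APOE, varied widely between libraries (13295 to 20251 counts in control, 14269 to 21014 with LPS) and was not called (log2 0.22 ± 0.12, adjusted p = 0.18). Its adjusted p was 0.0253 without control replicate 2 and 0.0196 without LPS replicate 1, with a log2 fold change of 0.36 in both cases, and 0.0103 without control replicates 2 and 3 (log2 0.54). With all libraries kept, Lrp1 was called with no filter on low counts (edgeR adjusted p = 4.0e-08, log2 0.22) and with a replicate block (0.00186, log2 0.23).

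Spp1 was the most counted gene of the group and fell by 24.1%. Its product osteopontin is a secreted glycoprotein that binds integrins and CD44 and is made by microglia in development, injury and plaque response. The gene (ENSMUSG00000029304, chr5:104435118-104441050, plus strand, 6 exons) had 162447, 166137 and 173586 counts in control and 118604, 114506 and 113746 with LPS. Its mRNA took between 0.967% and 0.979% of all counts in control libraries and between 0.671% and 0.725% in LPS libraries. The level was 9413 ± 72.6 CPM in control and 7142 ± 326 CPM with LPS (log2 -0.40 ± 0.03, 95% interval -0.45 to -0.34, edgeR adjusted p = 1.7e-08). All LPS libraries were below, and the gene was second in rank by level in both groups. Gm42793, a gene of uncertain type inside the span of Spp1 on the same strand, had 11 to 44 counts.

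Receptors of osteopontin moved the other way in 4 of the 6 tested genes of 8 listed, with 1 lower, 1 not called and a median of 0.21. The count of lower genes was 2 with libraries scaled by their total count or without control replicate 1. Itgb1, which rose by 0.15 on the log2 scale, lost its call with libraries scaled by their total count (log2 0.05, edgeR adjusted p = 0.266). Itga5, the alpha 5 integrin chain, rose from 229 ± 13.9 to 685 ± 20.1 CPM (log2 1.58, edgeR adjusted p = 1.7e-12). Cd44 rose from 722 ± 15.9 to 1259 ± 30 CPM (log2 0.80, adjusted p = 6.4e-11), and Itga4 by 0.26 on the log2 scale. Itgb5 fell by 0.51, and Itgav, the alpha chain it pairs with, was not called (log2 -0.09, adjusted p = 0.218, or 0.0303 without control replicate 1).

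Gpnmb, a transmembrane glycoprotein of lysosomes and the cell surface, was nearly level and rose by 5.61%. The gene (ENSMUSG00000029816, chr6:49036546-49070929, plus strand, 11 exons) had 86748, 87609 and 91874 counts in control and 84106, 85471 and 86544 with LPS. After TMM scaling these are 5064, 4967 and 4942 CPM in control and 5331, 5212 and 5270 CPM with LPS, so that the LPS libraries were all above. The log2 fold change was 0.08 ± 0.02 (95% interval 0.03 to 0.12, edgeR adjusted p = 0.00777), but its direction rests on the scaling: with libraries scaled by their total count it was -0.02, with an adjusted p of 0.469. The adjusted p was 0.0742 without control replicate 3. The ratio of Spp1 to Gpnmb counts, which no scaling alters, was 1.89 ± 0.0122 in control and 1.35 ± 0.0497 with LPS. It was lower in 3 of 3 LPS libraries, with a log2 difference of -0.48 (p = 0.1 in the exact 2-sided permutation test, the smallest possible). MITF and its relatives, known activators of Gpnmb, went both ways: Mitf rose by 0.19 on the log2 scale (116 to 133 CPM), Tfeb fell by 0.50 (19.3 to 13.6 CPM), and Tfe3 (log2 0.12) and Tfec (log2 -0.10) were not called. Mitf lost its call without control replicates 2 and 3 (log2 0.21, adjusted p = 0.0665).

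Cd9, a tetraspanin that organizes integrins and other proteins in the membrane, changed least among the genes that fell. The gene (ENSMUSG00000030342, chr6:125460266-125494791, minus strand, 8 exons) had 21841, 21072 and 22580 counts in control and 18654, 18454 and 18632 with LPS. The LPS libraries (1182, 1125 and 1135 CPM) were all below the control libraries (1275, 1195 and 1215 CPM), by a small margin. The log2 fold change was -0.10 ± 0.03 (95% interval -0.17 to -0.03, edgeR adjusted p = 0.0376). The call was lost when control replicate 1 (adjusted p = 0.06), control replicate 3 (0.0622), LPS replicate 2 (0.159) or LPS replicate 3 (0.111) was left out. Opposite-strand genes overlap Cd9, Gm28809 with 3 to 17 counts and Gm26728 with 0 to 5, and the use of strand in counting is not given in the sources used here. Of the 11 tested tetraspanins on the list of other family members, 3 rose, 4 fell and 4 were not called (median -0.04), and 1 rose with libraries scaled by their total count, without control replicate 3, without LPS replicate 1 or without control replicates 2 and 3 together. Cd81, a close relative and partner of CD9, fell by 0.35 on the log2 scale and Tspan14, a partner of ADAM10, by 0.42, while Tspan13 rose by 0.46 and Cd82 by 0.23. The call on Cd82 was lost without control replicate 3 (adjusted p = 0.0651) or LPS replicate 1 (0.0555), and without control replicates 2 and 3 together (0.295). Cd63, the tetraspanin of late endosomes, rose by 0.12 (adjusted p = 0.0488), a call lost without control replicate 2 (0.256), control replicate 3 (0.0852) any 1 of the LPS libraries (0.0587 to 0.131), or control replicates 2 and 3 together (0.399). It was also lost with RLE size factors (0.0595), with no filter on low counts (0.0555) and with libraries scaled by their total count (log2 0.02, adjusted p = 0.736).

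Cst7 was not called, and its group means were close. It encodes cystatin F, an inhibitor of lysosomal cysteine proteases that acts on cathepsin C among others. The gene (ENSMUSG00000068129, chr2:150570415-150578944, plus strand, 4 exons) had 920, 988 and 993 counts in control and 878, 928 and 883 with LPS. The groups overlapped, with means of 54.4 ± 1.42 and 55.3 ± 1.44 CPM. The log2 fold change was 0.03 ± 0.05 (edgeR adjusted p = 0.762), and its 95% interval of -0.09 to 0.14 bounds the change that these libraries allow. Its target Ctsc, cathepsin C, fell by 0.20 on the log2 scale (99.9 to 86.9 CPM). In the list of 9 cystatins and proteases, 8 were tested, 3 rose, 2 fell and 3 were not called. Cstb (cystatin B) rose by 0.42, Ctsl (cathepsin L) by 0.21 and Ctsb (cathepsin B) by 0.15 on the log2 scale, and Lgmn (legumain) fell by 0.45.

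Lgals3 rose by 15.5%. Its product galectin-3 binds beta-galactosides on glycoproteins, is secreted by activated microglia and marks damaged lysosomes. The gene (ENSMUSG00000050335, chr14:47367751-47386160, plus strand, 6 exons) had 21094, 19815 and 21795 counts in control and 21410, 21880 and 22696 with LPS. These are 1231, 1123 and 1172 CPM in control and 1357, 1334 and 1382 CPM with LPS, and all LPS libraries were above. The log2 fold change was 0.21 ± 0.04 (95% interval 0.13 to 0.28, edgeR adjusted p = 3.1e-04). Cd9 and Lgals3 had near-equal counts in control, and their ratio was 1.04 ± 0.016 in control and 0.845 ± 0.0252 with LPS (log2 difference -0.31, lower in 3 of 3 libraries, p = 0.1 in the exact 2-sided permutation test, the smallest possible).

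Of 3 other galectin genes tested, 2 rose with it, as did Lgals3bp, and the median over these 4 genes was 0.85. Lgals9 rose most, from 11.1 ± 1.26 to 46.8 ± 2.51 CPM (log2 2.07, edgeR adjusted p = 1.4e-10). Lgals8, which binds exposed glycans on broken vesicles, rose by 0.85 on the log2 scale, and Lgals3bp, which is no galectin but a secreted ligand of galectin-3, by 0.85. Lgals1, at 554 CPM in control, was not called (log2 0.02, adjusted p = 0.786).

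A list of 40 other DAM genes, none of them among the 10, held 36 that were tested. Of these, 16 rose, 8 fell and 12 were not called, with a median of 0.11. The largest rises were those of the chemokines Ccl4 (36.3 to 148 CPM, log2 2.03) and Ccl3 (199 to 585 CPM, log2 1.56), and of Cybb, the catalytic subunit of the phagocyte NADPH oxidase (log2 1.32). These are also inflammatory genes outside the DAM state. The largest falls were those of Ank, a pyrophosphate transporter (514 to 322 CPM, log2 -0.67), Timp2, an inhibitor of metalloproteinases (log2 -0.53), and Cadm1, an adhesion molecule (log2 -0.49). Cd63, Lgals3bp, Ctsl and Ctsb stand both on this list and on a family list above. Among 14 homeostatic microglia genes, 8 were tested, 2 rose, 3 fell and 3 were not called (median -0.08), and 1 fell without control replicates 2 and 3. Selplg, a selectin ligand, rose by 1.07 on the log2 scale and Csf1r by 0.16.

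**Figure D4:**
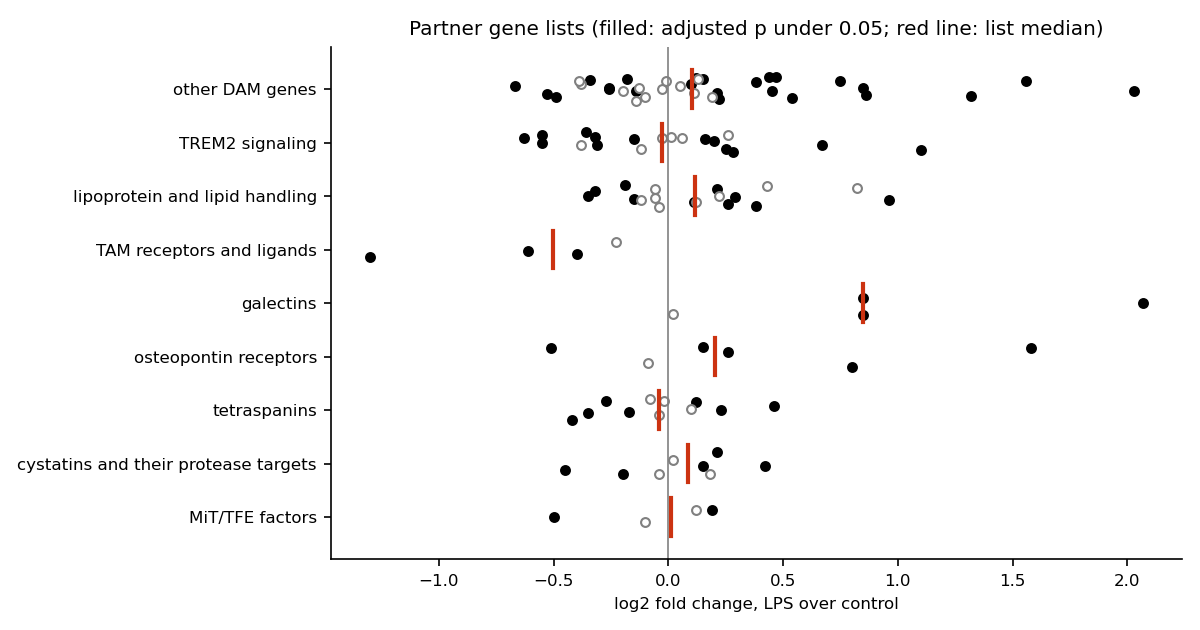
Log2 fold change of LPS over control (x axis) of each tested gene in 9 lists of related genes (y axis), filled where the edgeR adjusted p is under 0.05, with the list median as a red line. The medians run from -0.50 (TAM receptors and ligands) to 0.85 (galectins), and most lists hold genes on both sides of 0.

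The 10 genes differed far more in level than any of them changed. Together they took between 1.91% and 1.95% of all counts in control and between 1.56% and 1.63% in LPS libraries. Without Spp1 the shares were 0.946% to 0.967% and 0.891% to 0.907%. Per kilobase of the gene length in the deposited table, Spp1 led in control with 5712 ± 44.1 CPM per kb, followed by Gpnmb (766 ± 9.89), Lgals3 (633 ± 29.1), Cd9 (601 ± 20.5), Tyrobp (320 ± 9.69), Lpl (135 ± 4.08), Cst7 (55.2 ± 1.44), Trem2 (27.9 ± 0.596), Apoe (4.08 ± 0.632) and Axl (0.00713 ± 0.0123). Lgals3 and Cd9 overlapped between libraries, and no other neighbors did. With LPS the order was the same, and Lgals3 (731 ± 12.8) no longer overlapped Cd9 (561 ± 15).

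The order depends in part on which length is used, since the table counts all exons of a gene. Trem2 has 4946 bases in the table and 1088 in its principal transcript. By the principal transcript, Trem2 stood at 127 ± 2.71 CPM per kb in control, above Cst7 (55.2 ± 1.44), and Cd9 (1000 ± 34.1) above Lgals3 (829 ± 38.1). With LPS, Lgals3 (957 ± 16.8) and Cd9 (934 ± 24.9) then overlapped. By either length Apoe was ninth, with 6.2 ± 0.959 CPM per kb in control by the shorter one.

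**Figure D5:**
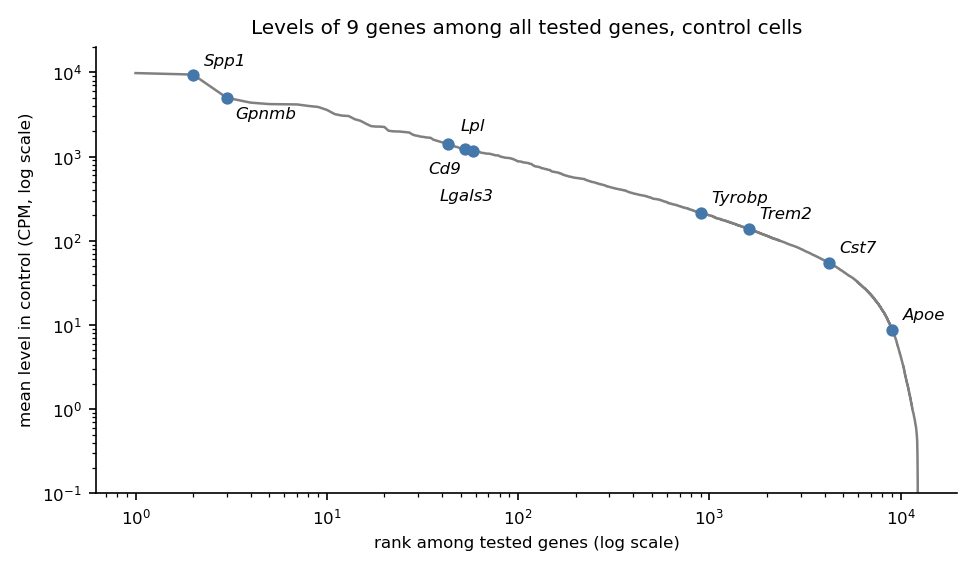
Mean level in control (y axis, CPM, log scale, cut at 0.1) against rank (x axis, log scale) for all 12296 tested genes (grey line), with the 9 tested genes as points. Spp1 and Gpnmb hold ranks 2 and 3, Lpl, Cd9 and Lgals3 ranks 43 to 58, and Apoe rank 9042.

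The genes whose levels ran most like those of Trem2, Apoe and Lpl were found by Pearson correlation of log2 CPM over the 6 libraries, among the 10457 tested genes whose mean reached 50 counts. Libraries of both groups enter, so the values hold the difference between groups, and they are given as a description. Trem2 was most like Tlr4, the receptor of LPS itself (r = 0.9976, log2 fold change -0.52, 88.3 to 61.4 CPM), Stard4, a sterol carrier (0.9976, -0.48), and Lrmp (0.9956, -0.43). Apoe was most like Rfx2 (0.9964), Nup133 (0.9954) and G730013B05Rik (0.9938). Lpl was most like Tcf12 (0.9971), Rmi1 (0.9964) and Lrp5 (0.9962), a co-receptor of Wnt signaling that went from 111 to 79.3 CPM.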

How the data were processed

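RNA-seq of N9 microglia was analysed in 6 libraries, 3 control and 3 LPS, grouped by the labels. The authors deposited a table of whole-number counts per gene for 54532 genes, without normalization. The submitters' processing notes name featureCounts 1.5.0-p3 and the build mm10; the aligner is not given in the sources used here, and the paper names DESeq2 for its own comparison. A second table, of that comparison for 20014 genes (fold changes and p-values), was not used, nor were its 18 per-sample columns.

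LPS was compared with control by the quasi-likelihood test of edgeR 4.0.16 (R 4.3.3) with TMM, filterByExpr and no replicate term. The p-values of the 12296 genes tested were adjusted together by the Benjamini-Hochberg method. SE is the size of the log2 fold change over the square root of F. On simulated counts for 54532 genes (12298 tested), edgeR recovered 100 of 100 genes changed by 0.7 on the log2 scale and 100 of 100 changed by 2, with 14 false calls. Recovery of changes smaller than 0.7 on the log2 scale was not tested. The log2 fold changes of the 9 tested DAM genes were all smaller in size, from -0.68 (Apoe) to 0.21 (Lgals3). Library totals lay between 16363767 and 17956772 counts. Every pair of libraries within a group differed beyond sampling noise, with a chi-square per gene between 3.55 and 7.71. Alternatives were DESeq2 1.42.0, other scalings and filters, robust dispersion, a replicate block and libraries left out; leaving out control replicates 2 and 3 together was added after seeing the data. Exact permutation tests used scipy 1.17.1.

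Coordinates and transcript lengths came from GENCODE M21 (GRCm38), in which all 10 genes have the coordinates of the table; promoters are RefSeq's (GRCm38.p6). Named genes are the 10 members, the direct partners on each list, the 3 called genes of each list with the largest rise and the 3 with the largest fall (mean of at least 50 counts), the 3 genes most like Trem2, Apoe and Lpl, and overlapping genes. Marker and homeostatic genes named for the check of the cells, and further list genes, were named outside this rule, after their values were seen. Some list genes that the rule names are not reported here. The members and lists were chosen with earlier results of these data known.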

Additional observations from a re-analysis of the deposited data

How the results depend on the processing

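The number of the 9 tested genes called was 7 under each of 7 alternatives that keep all 6 libraries (DESeq2, RLE size factors, total library size, no filter, a mean of at least 10 counts, robust dispersion and a replicate block). It lay between 5 and 7 with each library left out. Trem2, Lpl, Spp1 and Lgals3 were called in the same direction under each of 14 alternatives, with log2 fold changes of -0.62 to -0.48, -0.35 to -0.21, -0.50 to -0.38 and 0.11 to 0.23. Tyrobp became called in 2 of the 14, and Cst7 in 0 of the 14.

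With libraries scaled by their total count, the median of all genes shifted by -0.10, and genes called lower went from 1927 to 3342 and genes called higher from 2294 to 1520. The share of lower among called genes went from 45.7% to 68.7%. Of the DAM genes 1 was then called higher (Lgals3), Gpnmb was at -0.02 and Tyrobp was called lower (log2 -0.21, adjusted p = 0.00375). Among the list genes, 27 in place of 40 were then called higher and 42 in place of 33 lower, and Adam17, Cd63, Cd82, Csf1r, Ctsb and Mitf were among those that lost their calls. DAM genes called higher ranged from 1 to 2 with each library left out, the lower value without control replicate 3. Without control replicates 2 and 3, where the single control sample is assumed to vary like the LPS samples, 1151 genes were called lower (1546 to 1929 with each library left out alone) and 1 DAM gene higher. Apoe (-0.44, adjusted p = 0.165) and Gpnmb (0.06, adjusted p = 0.114) then lost their calls, and with 1 control sample fewer calls can be made.

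The labels do not say whether control and LPS libraries with the same replicate number were handled together. The correlations of their deviations from the group mean were 0.136, 0.0588 and -0.00415 for replicates 1, 2 and 3. Control replicate 1 correlated best with LPS replicate 1, but control replicate 2 with LPS replicate 3 (0.0912), so these values do not settle the pairing. A replicate block took the genes called from 4221 to 4474 and left 7 DAM genes called. Under the block Lrp1 was called higher (log2 0.23, adjusted p = 0.00186). Depth limits what can be said of Axl, with at most 9 counts in a library.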
